A study of Mus musculus with 16 samples.

Results

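The head-to-hindbrain patterning factors described here are the 9 transcription factors OTX2, EN1, EN2, GBX2, PAX2, EGR2, MEIS1, MEIS2 and CDX2. They were taken as every probe of the array table, before normalization, whose target name was one of these symbols. They had 13 of the 45281 probes and 9 of the 30854 target names. Of the 13 probes 9 passed the detection filter, and 7 of the 9 genes were tested among 14829 genes, because PAX2 and CDX2 did not pass.

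Gene expression was measured on 16 Illumina MouseWG-6 v2.0 BeadChip arrays, 1 for each culture, at day 7 in serum-free medium. Mouse embryonic stem (ES) cells, a line that carries a knock-in of EGFP at the tau gene, had been grown on PA6 cells, a bone marrow stromal line of the mouse, or PA6 cells had been grown alone. The ES/PA6 co-cultures comprised 2 arrays with no growth factor (-GFs), 3 with recombinant FGF2 and 2 with recombinant BMP4, while each of these conditions had 3 arrays of PA6 mono-cultures. Per the labels the dose was 20 ng/ml for FGF2 and 10 ng/ml for BMP4, whereas the published methods give less BMP4. The factor was present for 3 days per the labels of the samples, although another label field reads as if it were present for all 7. RNA was taken from whole co-cultures, so the values of a co-culture hold RNA of ES-derived cells and of PA6 cells together, and fewer cells of a kind cannot be told apart from less RNA per cell.

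In the embryo, homeobox and zinc finger factors divide the neural plate along the head-to-tail axis. OTX2 marks forebrain and midbrain and GBX2 the anterior hindbrain, and each represses the other where they meet, at the isthmus. EN1, EN2 and PAX2 mark the isthmus and the adjacent midbrain, EGR2 patterns segments of the hindbrain, MEIS1 and MEIS2 are cofactors of HOX proteins, and CDX2 is a factor of the tail end of the embryo and of trophectoderm. Several of them also act outside the nervous system: OTX2 and GBX2 are expressed in pluripotent cells, EN1 in mesenchyme of limb and skin, EGR2 as an early response gene, and MEIS factors in stroma and blood.

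Sequence upstream of 4 of the genes is shown. OTX2, GBX2 and EN1 were among those that separated the kinds of culture, OTX2 and GBX2 through co-cultures and EN1 through PA6 cells. EGR2 was chosen because its readings with FGF2 had opposite directions in the kinds of culture, neither of them called by itself. The windows came from RefSeq on build GRCm38.p6 and run from 250 bases before a start to 50 bases from it, 300 bases in all, and 8 of the 9 members had at least 1 (EN2 had no entry). Capitals mark matches, on either strand, to 6 words, namely TAATTA and TAATTG (homeodomain core), TAATCC (the core that OTX factors bind), TGACAG (MEIS core), CCGGAAG (ETS core) and GGGCGG (GC box). No matches overlapped in the windows of the members. Of 32851 windows in the table these words were present in 5.29%, 8%, 7.06%, 19.2%, 8.86% and 35.7%, in that order, and the median number of CpG was 7.
Otx2, the third of 4 listed starts, chr14:48665060-48665359, minus strand: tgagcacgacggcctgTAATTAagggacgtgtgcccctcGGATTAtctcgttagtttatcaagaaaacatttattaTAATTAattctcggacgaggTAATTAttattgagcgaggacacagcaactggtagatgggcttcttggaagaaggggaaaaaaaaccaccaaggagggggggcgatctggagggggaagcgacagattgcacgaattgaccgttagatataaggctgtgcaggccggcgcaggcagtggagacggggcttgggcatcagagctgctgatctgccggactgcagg
Gbx2, the single listed start, chr1:89931127-89931426, minus strand: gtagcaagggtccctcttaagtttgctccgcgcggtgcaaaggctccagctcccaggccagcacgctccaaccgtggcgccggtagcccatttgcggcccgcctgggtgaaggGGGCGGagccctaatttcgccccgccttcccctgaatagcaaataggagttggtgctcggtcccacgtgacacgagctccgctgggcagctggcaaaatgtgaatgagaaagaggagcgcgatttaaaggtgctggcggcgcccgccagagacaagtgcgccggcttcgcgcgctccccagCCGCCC
En1, the single listed start, chr1:120602237-120602536, plus strand: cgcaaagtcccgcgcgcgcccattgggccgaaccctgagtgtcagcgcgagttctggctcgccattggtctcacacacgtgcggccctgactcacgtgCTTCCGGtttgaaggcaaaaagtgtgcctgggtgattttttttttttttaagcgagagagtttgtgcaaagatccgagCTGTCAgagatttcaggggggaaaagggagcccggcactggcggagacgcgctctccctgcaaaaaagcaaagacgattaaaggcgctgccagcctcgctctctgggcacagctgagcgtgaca
Egr2, the first of 5 listed starts, chr10:67535249-67535548, plus strand: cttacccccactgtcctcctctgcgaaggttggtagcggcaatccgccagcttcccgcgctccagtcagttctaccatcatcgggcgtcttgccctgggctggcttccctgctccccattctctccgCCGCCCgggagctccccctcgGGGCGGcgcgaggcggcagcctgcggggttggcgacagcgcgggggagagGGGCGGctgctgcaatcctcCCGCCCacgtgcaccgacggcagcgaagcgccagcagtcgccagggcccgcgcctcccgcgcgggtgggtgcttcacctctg

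The Otx2 window held 3 matches to TAATTA and 1 to TAATCC, with 16 CpG. The Gbx2 window held 2 GC boxes and 27 CpG, and the Egr2 window 4 GC boxes and 32 CpG. In the En1 window 1 TGACAG and 1 CCGGAAG were present, with 23 CpG. All 4 windows shown exceeded the median CpG number, but this does not hold for every listed start. For Otx2 and Egr2 the window shown had the most matches and the most CpG of the listed starts. The other Otx2 windows held 2, 0 and 1 matches, with 6, 8 and 11 CpG. The other Egr2 windows held 1, 0, 0 and 0 matches, with 24, 19, 19 and 16 CpG. The array does not say which start was in use, and a match is a description of letters.

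Values below are background corrected, quantile normalized intensities on the log2 scale, unless a raw intensity is named. A probe was taken as detected on an array when its detection p-value, the fraction of negative controls that were brighter, was under 0.05. A gene was called at a limma adjusted p under 0.1 together with a log2 fold change over 1 in size. Levels of different probes are not compared, since each probe has its own brightness. The arrays detected between 37.3% and 47% of probes, and arrays of the same group correlated at 0.973 or more over genes. The labels were checked against marker lists. Of 8 stromal markers, all 8 were measured, and their summed intensity was 148880 to 176578 in PA6 mono-cultures and 51402 to 73100 in co-cultures. The summed intensity of 6 measured neural markers was 207 to 345 in PA6 mono-cultures and 7050 to 18072 in co-cultures, but SOX1, PAX6 and TUBB3, which define neural cells, did not pass the filter, and MAP2 had no probe.

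OTX2, the forebrain and midbrain factor, was detected on all 7 co-culture arrays and on none of the 9 PA6 arrays. It read 10.37 and 9.55 without growth factors, 12.29, 10.49 and 10.41 with FGF2, and 10.52 and 9.57 with BMP4. The FGF2 arrays all lay above the -GFs arrays, but 2 of the 3 by little, and the highest value was that of FGF2 replicate 1. In PA6 mono-cultures OTX2 read 5.42 to 5.92, which is background.

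EN2, one of the engrailed pair of the isthmus, had the same presence and absence, being detected on 7 of 7 co-culture arrays and 0 of 9 PA6 arrays. Its values were 8.82 and 9.77 without growth factors, 10.27, 10.33 and 10.16 with FGF2, and 9.58 and 8.88 with BMP4. The 3 FGF2 arrays were the highest of the co-cultures and lay close together, whereas the pairs of arrays in the other groups lay far apart. In PA6 mono-cultures EN2 read 5.57 to 6.39, which is background.

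GBX2, the factor of the anterior hindbrain, was detected on the 7 co-culture arrays and on no PA6 array. It stood at 12.22 and 12.38 without growth factors, at 11.91, 11.36 and 11.43 with FGF2, and at 11.38 and 11.75 with BMP4. Both -GFs arrays were above every array with a factor. Its FGF2 arrays thus lay on the other side of the -GFs arrays from those of OTX2 and EN2. In PA6 mono-cultures GBX2 read 5.52 to 6.43, also background.

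EN1, the other engrailed gene, was detected on all 16 arrays and was brighter in PA6 cells than in any co-culture. In co-cultures its brighter probe read 9.63 and 9.60 without growth factors, 10.31, 10.60 and 10.28 with FGF2, and 9.49 and 10.15 with BMP4. In PA6 mono-cultures it read 13.04, 13.01 and 13.13 without growth factors, 13.34, 13.28 and 13.14 with FGF2, and 12.45, 12.68 and 12.65 with BMP4. Within PA6 cells the order was FGF2, then -GFs, then BMP4, without overlap of arrays, although FGF2 and -GFs differed by no more than 0.19 ± 0.12 (log2 fold change ± SE, limma adjusted p = 0.592).

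EGR2, the hindbrain segment factor, was detected on all 16 arrays, and its order of groups differed between the kinds of culture. Co-cultures read 9.95 and 8.56 without growth factors, 7.89, 8.27 and 8.68 with FGF2, and 8.61 and 7.93 with BMP4. PA6 mono-cultures read 7.10, 7.84 and 7.91 without growth factors, 8.85, 8.89 and 8.91 with FGF2, and 8.13, 7.47 and 8.04 with BMP4. The PA6 arrays with FGF2 were all above those without a factor, while in co-cultures the groups overlapped and replicate 1 without growth factors was far above replicate 2.

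MEIS1, a HOX cofactor, was detected on all 16 arrays by 2 of its 3 probes and was brighter in co-cultures. The brightest probe read 13.71 and 13.52 in co-cultures without growth factors, 12.87, 12.70 and 12.90 with FGF2, and 12.94 and 13.11 with BMP4. PA6 values of this probe were 11.34, 11.38 and 11.14 without growth factors, 11.07, 11.12 and 10.86 with FGF2, and 11.08, 11.41 and 10.97 with BMP4. The -GFs co-cultures were thus the highest of the 6 groups.

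MEIS2, its paralog, was detected on all 16 arrays at much the same brightness in both kinds of culture. Co-cultures read 13.74 and 13.48 without growth factors, 13.12, 12.81 and 13.08 with FGF2, and 13.13 and 13.26 with BMP4. PA6 mono-cultures read 13.76, 13.91 and 13.86 without growth factors, 13.51, 13.63 and 13.24 with FGF2, and 13.53, 13.60 and 13.42 with BMP4. In each kind of culture the -GFs arrays were all above those with a factor.

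PAX2 was not detected by either of its probes on any of the 16 arrays, with detection p-values of 0.0694 to 0.933. CDX2 was detected on 1 of 16 arrays, co-culture -GFs replicate 1, at 7.65 (raw intensity 385.1, detection p-value 0.0107), while the other co-culture of that group read 5.83 and was not detected. Neither was tested, and not detected here means not well above background, not absent.

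**Figure D1:**
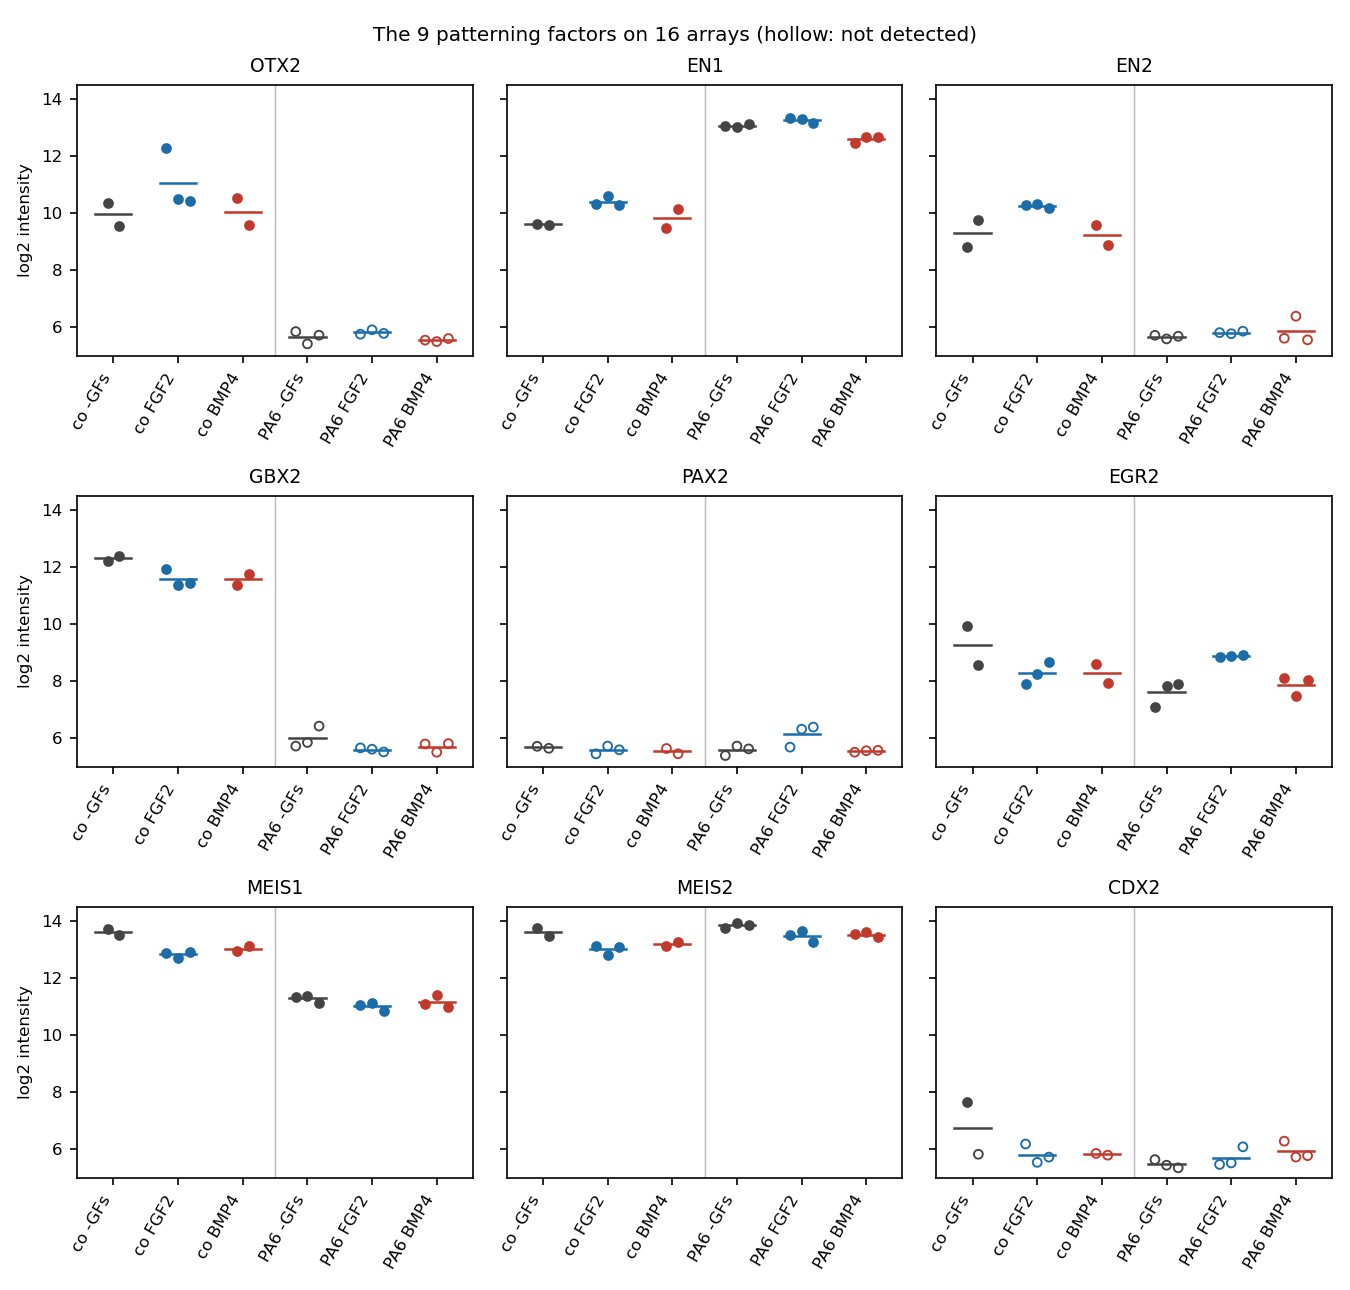
Log2 intensity (vertical axis) of the patterning factors on each of the 16 arrays, by group (horizontal axis), with 1 point per array and a bar at the group mean. OTX2, EN2 and GBX2 sit at background on all 9 PA6 arrays, and EN1 is higher on every PA6 array than on any co-culture array.

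The first comparison asked what FGF2 did in the co-cultures. OTX2, EN1 and EN2 read higher with FGF2 and GBX2, MEIS1, MEIS2 and EGR2 lower, yet none of the 7 tested members was called, against 7.42% of all genes called either way (5.07% higher and 2.35% lower). The largest difference was that of OTX2, 1.10 ± 0.61 (log2 fold change ± SE, 3 arrays against 2), with an adjusted p of 0.341 and a 95% interval of -0.34 to 2.54. The difference of OTX2 was 0.49 without FGF2 replicate 1. With the replicate number as a block it was 1.43, with an adjusted p of 0.0878, which made it a call.

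EN2 differed by 0.96 ± 0.32 (adjusted p = 0.137) and EN1 by 0.78 ± 0.24 (adjusted p = 0.105). With -GFs replicate 2 left out EN2 differed by 1.44, and it was called with an adjusted p of 0.0861. On the side of lower values, EGR2 differed by -0.97 ± 0.44 (adjusted p = 0.249), and by only -0.28 without -GFs replicate 1. GBX2 differed by -0.73 ± 0.23 (adjusted p = 0.118) and MEIS2 by -0.61 ± 0.19 (adjusted p = 0.107).

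MEIS1 was the one member under the adjusted p limit, with -0.79 ± 0.17 and an adjusted p of 0.0439, and its fold of 1.73 was short of the minimum. The groups did not overlap for 6 of the 7 members, all but EGR2, against 39.7% of all genes. An unadjusted p under 0.05 was found for 5 of the 7, against 22.7% of all genes. The median difference of the members was -0.61 and that of all genes -0.06.

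**Figure D2:**
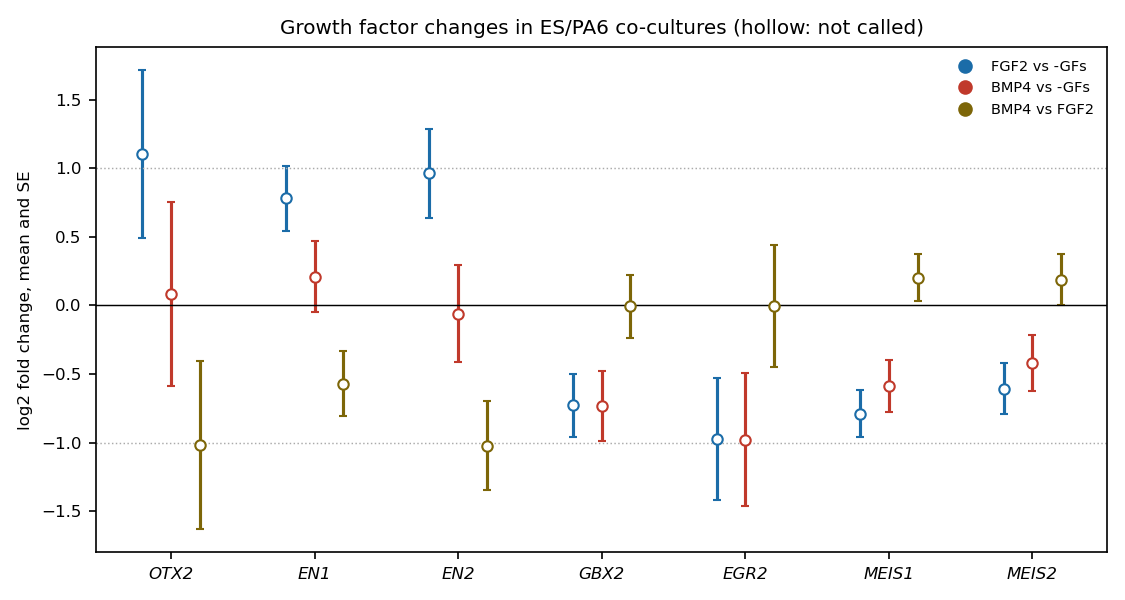
Log2 fold change (mean and SE) of the 7 tested members with FGF2 or BMP4 against -GFs in co-cultures. OTX2, EN1 and EN2 lie above 0 with FGF2 and the other 4 members below 0, and no member was called.

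The 2 measured probes of MEIS1 and the 2 of EN1 differed in size. The dimmer MEIS1 probe read 11.06 and 10.65 without growth factors, 9.55, 9.23 and 9.47 with FGF2, and 9.66 and 9.98 with BMP4. Tested alone among all probes, it was lower with FGF2 by -1.44 ± 0.22 (limma adjusted p = 0.0156) and with BMP4 by -1.04 ± 0.24 (adjusted p = 0.0951), both calls. Both MEIS1 probes thus read lower with either factor, and the probe chosen for its brightness gave the smaller differences. The dimmer EN1 probe read 7.16 and 6.67 without growth factors, 6.86, 6.99 and 6.63 with FGF2, and 7.41 and 7.24 with BMP4 in co-cultures, close to background. Its difference with FGF2 was -0.09 ± 0.22 (adjusted p = 0.863), so the higher EN1 reading of the first probe was not seen by the second.

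**Figure D3:**
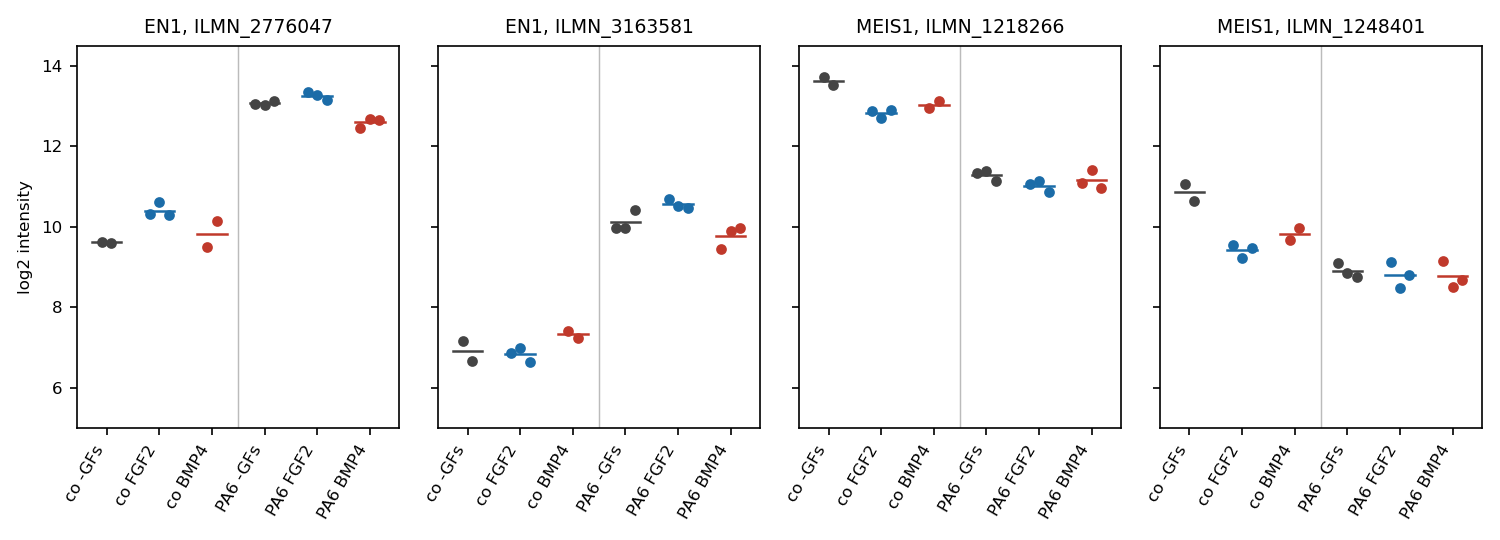
Log2 intensity on each array (points) and group means (bars) for the 2 probes each of EN1 and MEIS1 that passed the filter. Both EN1 probes are higher in PA6 mono-cultures, but only the first is higher with FGF2 in co-cultures, while both MEIS1 probes are highest in -GFs co-cultures.

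The genes around these factors came from lists of forebrain, midbrain and isthmus, hindbrain, tail and trunk, TALE cofactor genes and EGR paralogs. Of the forebrain list 2 of 10 genes were measured, and neither was called with FGF2 or BMP4 (medians 0.51 and 0.60). The 9 measured genes of 14 on the hindbrain list read lower with FGF2 without exception, with a median of -1.59, and 6 of them fell. These were HOXB1 (-2.84 ± 0.80, adjusted p = 0.0894), HOXD3 (-2.84 ± 0.43, adjusted p = 0.0148), HOXD4 (-2.74 ± 0.64, adjusted p = 0.0541) and HOXB2 (-1.79 ± 0.22, adjusted p = 0.00871), all HOX genes of hindbrain segments and neck. The other 2, HOXA2 (-1.59) and the homeobox gene IRX3 (-1.56), are named after their values were seen. HOXB1, HOXD3 and HOXD4 were each detected on 2 of the 3 FGF2 arrays. HOXA2, HOXB2 and IRX3 were called in all 7 fits that left out 1 co-culture array, HOXD3 in 6 (not without -GFs replicate 1), HOXD4 in 3 (with the FGF2 replicate 3 or either BMP4 array left out) and HOXB1 in 1 (without FGF2 replicate 1). The count of 6 became 3 without -GFs replicate 1, 4 without -GFs replicate 2 or without FGF2 replicate 2, and 5 otherwise.

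Of the midbrain and isthmus list 5 of 8 genes were measured, 2 reading higher and 3 lower with FGF2, with a median of -0.21. The only call was FGF17, a signal of the isthmus, which rose by 1.69 ± 0.47 (adjusted p = 0.0845). FGF17 was detected on 1 of 2 -GFs arrays, was called in 3 of 7 fits that left out an array (without FGF2 replicate 2 or either BMP4 array), and was not called with the replicate block (1.56, adjusted p = 0.128). WNT3A, a signal of the tail bud, fell by 1.94 (adjusted p = 0.0585), the only call among 4 measured genes of the tail and trunk list, and it was not called without -GFs replicate 1 or 2 or with the replicate block (adjusted p = 0.238, 0.166 and 0.101). MEIS3, a paralog of the MEIS members, fell by 1.23 (adjusted p = 0.0327) as the only call among 7 TALE cofactors, and was not called without -GFs replicate 1 or 2 (adjusted p = 0.173 and 0.112). Neither of the 2 measured EGR paralogs was called.

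Marker genes of several cell types moved with FGF2 in the same co-cultures. Of 9 measured pluripotency markers 8 rose, with a median of 2.70, and the summed intensity of the list was 10575 to 10824 without growth factors and 50411 to 62209 with FGF2. Of 6 measured neural markers 2 fell (HES5 by 2.11 and NES by 1.29), and their summed intensity was 13592 to 18072 without growth factors and 8294 to 9394 with FGF2. NES was not called without -GFs replicate 2 (-1.05, adjusted p = 0.125). Of 5 measured endothelial markers 2 rose, PECAM1 by 3.24 and TEK from background without growth factors (group means 6.14 and 9.09). The list median was 1.49, and the summed intensity was 461 to 621 without growth factors and 2121 to 3647 with FGF2. Of 5 epidermal markers 1 rose, GRHL3, which was called in 1 of 7 fits that left out an array. GRHL3 was not called with the replicate block (1.24, adjusted p = 0.197). None of 3 trophectoderm and 8 stromal markers was called. The part of these markers in the values of the patterning factors was not tested.

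BMP4 in co-cultures was compared next. No member was called, against 3.75% of all genes called either way (2.28% higher and 1.47% lower). GBX2 differed by -0.73 ± 0.25 (adjusted p = 0.23), MEIS1 by -0.59 ± 0.19 (adjusted p = 0.196), EGR2 by -0.98 ± 0.49 (adjusted p = 0.42) and MEIS2 by -0.42 ± 0.20 (adjusted p = 0.403). For GBX2, MEIS1 and MEIS2 the groups did not overlap, against 46.1% of all genes, and 2 of the 7 members had an unadjusted p under 0.05, against 14.9%. The isthmus and midbrain factors showed little, with OTX2 at 0.08 ± 0.67 (95% interval -1.50 to 1.66), EN1 at 0.21 ± 0.26 (-0.40 to 0.82) and EN2 at -0.06 ± 0.36 (-0.90 to 0.77), and these intervals leave room for differences past the fold limit for OTX2.

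Of the hindbrain list 2 of 9 genes fell with BMP4, HOXA2 by 1.30 (adjusted p = 0.0316) and HOXB2 by 1.06 (adjusted p = 0.0858), with a list median of -0.18. With 1 co-culture array left out HOXA2 was called in 4 of 7 fits (not without -GFs replicate 1 or 2 or BMP4 replicate 1) and HOXB2 in 2 (without FGF2 replicate 1 or 2). Under the 13 other alternatives HOXA2 was called in 11 and HOXB2 in 7, with adjusted p-values over all these fits of up to 0.182 and 0.314, and neither was called with the replicate block (0.110 and 0.132). HOXC9, a HOX gene of the trunk, was at background without growth factors, and BMP4 co-cultures were at least 16-fold higher (group means 5.72 and 10.54, adjusted p = 0.017), and it was called in all 7 fits that left out an array. It was the only call among the 4 measured tail and trunk genes. Beside these, 3 of 5 measured epidermal markers rose. Among them was KRT14, a keratin of basal epidermis, at least 110-fold higher (group means 5.96 and 13.31), which passed the detection filter through BMP4 co-cultures alone. The summed epidermal intensity was 301 to 304 without growth factors and 13144 to 29467 with BMP4. Of 5 measured endothelial markers 2 rose (median 1.98), of 3 trophectoderm markers 2 rose (median 1.13), of 9 pluripotency markers 4 rose and of 6 neural markers 2 fell, while none of 8 stromal markers was called. With the replicate block these counts were 2, 0, 0 and 1 in the same order, and leaving out 1 co-culture array gave 0 to 3, 0 to 2, 0 to 5 and 0 to 2. The part of these markers in the values of the members was not tested.

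**Figure D4:**
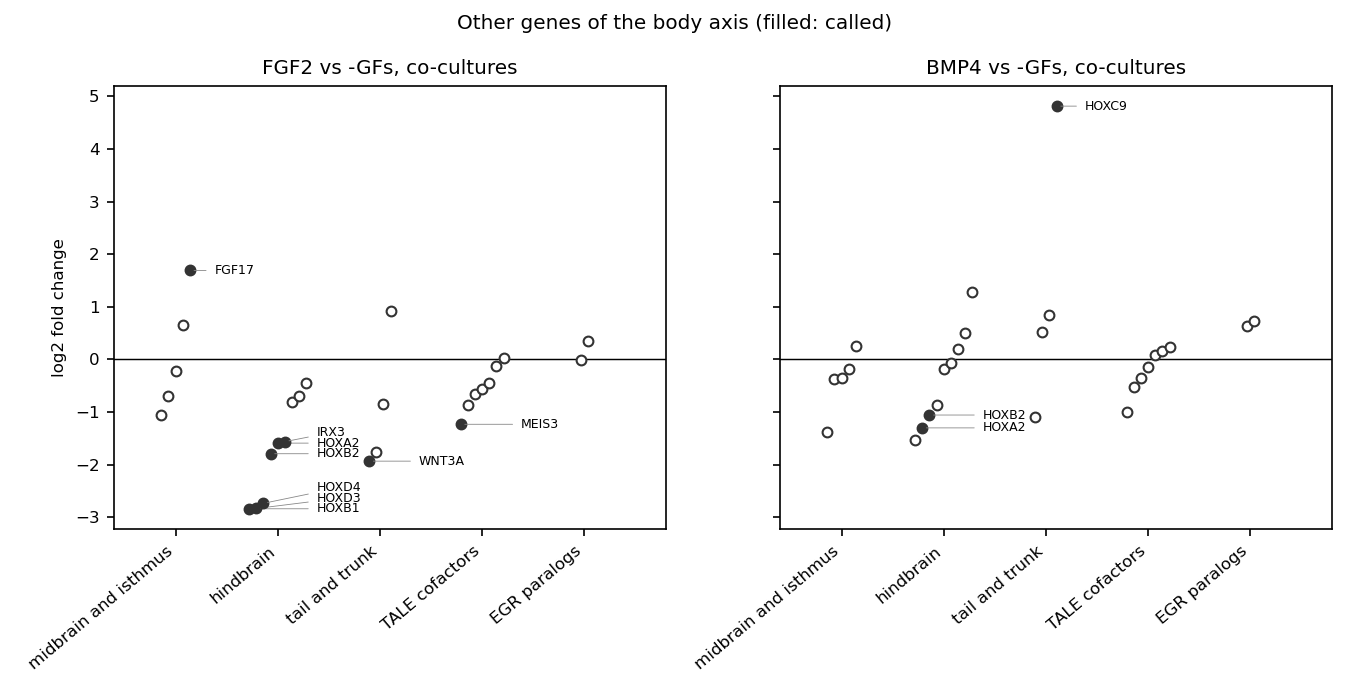
Log2 fold change of each measured gene of the body axis lists other than forebrain with FGF2 (left) or BMP4 (right) against -GFs in co-cultures, with called genes filled and named. The hindbrain list lies below 0 throughout with FGF2, and HOXC9 is the highest point with BMP4.

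BMP4 and FGF2 co-cultures were also set against each other. None of the 7 members was called, against 1.44% of all genes, and 2 had an unadjusted p under 0.05, against 14.2%. EN2 read lower with BMP4 by -1.02 ± 0.32 (adjusted p = 0.227) and EN1 by -0.57 ± 0.24 (adjusted p = 0.338), although the second EN1 probe read higher with BMP4, by 0.50 ± 0.22 (adjusted p = 0.386). OTX2 differed by -1.02 ± 0.61 (adjusted p = 0.521). EN1, EN2, MEIS1 and MEIS2 did not overlap between these groups, against 31.4% of all genes. EN2 was called (adjusted p = 0.0706) when all 16 arrays shared the estimate of the spread. GBX2 and EGR2 differed by -0.01 ± 0.23 (95% interval -0.55 to 0.54) and -0.00 ± 0.44 (-1.05 to 1.04). The hindbrain genes HOXD3 (3.04 ± 0.43, adjusted p = 0.0455) and HOXD4 (3.24 ± 0.64, adjusted p = 0.0967) were higher with BMP4, as were HOXC9 (3.90 ± 0.55) and WNT3A (2.77 ± 0.47) of the tail and trunk list (adjusted p = 0.0455 and 0.0729). With 1 co-culture array left out, 0 to 2 of the hindbrain genes and 0 to 2 of the tail and trunk genes were called. None of them was called without FGF2 replicate 1 or FGF2 replicate 3, and the adjusted p was 0.145 to 0.153 for these 4 genes with the replicate block.

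In PA6 mono-cultures the factors were given without ES cells. With FGF2 no member was called, against 0.027% of all genes, and with BMP4 no member was called, against 0%. An unadjusted p under 0.05 was found for EGR2 and MEIS2 with FGF2 (2 of 7 members, against 10.4% of all genes) and for EN1 and MEIS2 with BMP4 (2 of 7, against 9%). EGR2 with FGF2 came nearest, at 1.27 ± 0.25 (adjusted p = 0.149, unadjusted p = 0.000627, 95% interval 0.71 to 1.82), with no overlap between 3 and 3 arrays, which held for 16.7% of all genes. MEIS2 differed by -0.38 ± 0.13 (adjusted p = 0.389) with FGF2 and by -0.33 ± 0.13 with BMP4 (adjusted p = 0.54). EN1 differed by -0.47 ± 0.12 with BMP4 (adjusted p = 0.477). Between BMP4 and FGF2 no member was called either, against 0.31% of all genes, although EN1 was lower with BMP4 by -0.66 ± 0.12 (adjusted p = 0.0967) and its second probe by -0.78 ± 0.19 (adjusted p = 0.227). EGR2 was lower by -1.003 ± 0.25 (adjusted p = 0.218) in the same comparison, and these 2 were the members with an unadjusted p under 0.05, against 9.27% of all genes. OTX2, EN2 and GBX2 were at background throughout PA6 cells and give no fold change there.

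Co-cultures and PA6 mono-cultures under the same factor were then compared over all 16 arrays. These differences hold the presence of ES-derived cells and any change in PA6 cells together, which cannot be told apart. Without growth factors 6 of the 7 members were called, 5 higher and 1 lower in co-cultures, against 44.1% of all genes called (22.3% higher and 21.8% lower). With FGF2 5 were called, 4 higher and 1 lower, against 46.4% (23.4% and 22.9%), and with BMP4 also 5, 4 higher and 1 lower, against 42.4% (22% and 20.3%). OTX2, EN2 and GBX2 are among the higher calls each time, and they passed the detection filter through co-cultures alone, so these counts are a description and nothing is read from them against the share of all genes. With detection required on all 16 arrays these 3 genes left the test and the counts were 3, 2 and 2.

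Among OTX2, EN2 and GBX2 the lower bounds on the fold were largest for GBX2. It was at least 48.7-fold higher in co-cultures without growth factors (means 12.30 and 6.01), at least 27.2-fold with FGF2 (11.57 and 5.61) and at least 26.2-fold with BMP4 (11.56 and 5.71). These folds are bounds because PA6 arrays were at background, and they take the lowest detected signal of those arrays as the level. OTX2 was at least 9.66-fold higher without growth factors (9.96 and 5.67), at least 19.2-fold with FGF2 (11.06 and 5.82) and at least 9.15-fold with BMP4 (10.04 and 5.56). EN2 was at least 6.08-fold higher without growth factors (9.29 and 5.67), at least 10.9-fold with FGF2 (10.26 and 5.82) and at least 5.22-fold with BMP4 (9.23 and 5.86). No p-values are given for GBX2, OTX2 and EN2 here, because they entered the test through the co-cultures, where they are high.

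EN1 was the only member called lower in co-cultures, by -3.45 ± 0.18, -2.86 ± 0.16 and -2.77 ± 0.18 (log2, for -GFs, FGF2 and BMP4, adjusted p = 3.25e-09, 4.69e-09 and 3.21e-08), or 10.9-fold, 7.26-fold and 6.83-fold. Its second probe gave -3.19, -3.72 and -2.45, all called. The engrailed genes thus lay on opposite sides, EN2 measured only in co-cultures and EN1 brightest in PA6 cells. The stromal list beside EN1 had 5, 5 and 4 of 8 genes called lower in co-cultures, with medians of -1.91, -1.58 and -1.04, while 1, 1 and 0 genes (LPL) were called higher. The part of a lower stromal share in the EN1 values was not tested.

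MEIS1 was higher in co-cultures by 2.33 ± 0.16, 1.81 ± 0.15 and 1.87 ± 0.16 (adjusted p = 5.02e-08, 1.31e-07 and 4.68e-07), or 5.02-fold, 3.51-fold and 3.66-fold. Its second probe was higher by 1.95, 0.61 and 1.05, of which the value with FGF2 was under the fold limit (adjusted p = 0.019). MEIS2 differed by -0.23, -0.46 and -0.33 (adjusted p = 0.219, 0.011 and 0.0886), under the fold limit in each case. EGR2 was higher without growth factors by 1.63 ± 0.39 (adjusted p = 0.00215) and was not called with FGF2 (-0.61 ± 0.34, adjusted p = 0.135) or BMP4 (0.39 ± 0.39, adjusted p = 0.395). That call was lost without co-culture -GFs replicate 1, with a difference of 0.94 and an adjusted p of 0.0593.

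**Figure D5:**
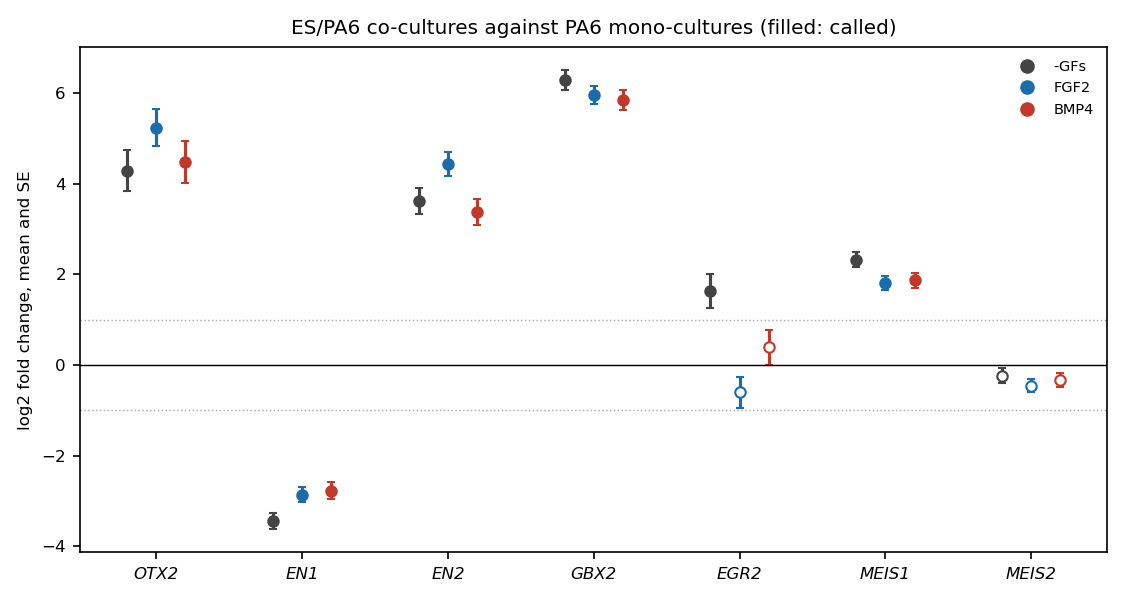
Log2 fold change (mean and SE) of the 7 tested members in co-cultures against PA6 mono-cultures under the same factor, with called values filled and dotted lines at the fold limit. GBX2, OTX2, EN2 and MEIS1 lie above the limit with all 3 factors and EN1 below it, and the values of OTX2, EN2 and GBX2 rest on PA6 arrays at background.

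The body axis lists gave the surroundings of these differences. Without growth factors 6 of 9 hindbrain genes and 3 of 5 midbrain and isthmus genes were higher in co-cultures than in PA6 cells, as were 3 of 4 tail and trunk genes. With FGF2 the hindbrain count was 2 higher and 1 lower, and with BMP4 it was 5 higher. The 2 measured forebrain genes were both called lower in co-cultures without growth factors and with FGF2, and 1 of them with BMP4. The 2 EGR paralogs EGR1 (-1.08 ± 0.30) and EGR3 (-1.62 ± 0.55) were lower in co-cultures without growth factors, EGR3 being detected on 1 of these 2 co-cultures. EGR1 (-1.15) and EGR3 (-2.04) were again called lower with FGF2, and neither was called with BMP4. All 6 measured neural markers were higher in co-cultures without growth factors.

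Last, the effect of each factor in co-cultures was tested against its effect in PA6 cells. EGR2 was the only member whose FGF2 effect differed, by -2.24 ± 0.52 (log2, adjusted p = 0.0207, 95% interval -3.35 to -1.13), against 7.9% of all genes called. It comprises the lower reading of -0.97 in co-cultures and the higher reading of 1.27 in PA6 cells, neither of which was called by itself. The difference was called in each of 16 fits that left out 1 array, between -2.93 and -1.54, and was nearest 0 without co-culture -GFs replicate 1 (-1.54, adjusted p = 0.0966). The dimmer MEIS1 probe tested alone also differed, by -1.34 ± 0.32 (adjusted p = 0.0252), which the brighter probe did not (-0.52 ± 0.22, adjusted p = 0.187). For BMP4 no member was called, against 4.23% of all genes, and 2 of 7 had an unadjusted p under 0.05, against 15.5%. EGR2 differed by -1.24 ± 0.54 (adjusted p = 0.288) and was called without co-culture -GFs replicate 2 (-1.94, adjusted p = 0.07), and EN1 differed by 0.68 ± 0.26 (adjusted p = 0.219) and was called without co-culture BMP4 replicate 1 (1.01, adjusted p = 0.0543).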

How the data were processed

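The 16 cultures were profiled on Illumina MouseWG-6 v2.0 arrays, 1 each. The deposited table holds, per probe and array, an average bead intensity that the authors did not normalize between arrays, and a detection p-value, also deposited by the authors, from GenomeStudio 2011.01 (per the submitters' processing notes). Their cubic spline normalized values were not used here. Columns were matched to samples by name. Intensities were background corrected by normexp from the detection p-values, given an offset of 16, quantile normalized and log2 transformed (neqc, limma 3.58.1, R 4.3.3). A probe had to be detected (p-value under 0.05) throughout 1 or more groups, which 20880 did, and the probe with the largest mean stood for a gene (14829 genes). Limma models were fitted to the 7 co-culture arrays, the 9 PA6 arrays, or all 16 for comparisons of both kinds of culture, with Benjamini-Hochberg adjustment over all genes. The thresholds were those of the study's methods. The members and lists were chosen with earlier results of these data known. The genes named are the members, called list genes (up to 4 a list and comparison, the largest first) and, for each member, genes among the 3 with the most similar values over co-cultures. Some items are not reported here. Alternatives covered scaling, background, filters, probe choice, variance prior, thresholds, blocks, other sets of arrays and leaving out each array. The fits were tested on simulated data. The labels name biological replicates but no separate cell passages, so p-values measure the spread between these cultures. The number of arrays limits precision, and fold changes are compressed on the log2 scale after the offset.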

Additional observations from a re-analysis of the deposited data

Results flagged for a closer look

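EGR2 stood out because its FGF2 effect differed between the kinds of culture, by -2.24 on the log2 scale (co-cultures minus PA6 mono-cultures, limma interaction). The difference was called under all 13 alternatives other than leaving out an array, between -2.35 and -1.54, with adjusted p-values of 0.0102 to 0.0428. CDX2, which did not pass the filter and entered no comparison, had a raw intensity of 385.1 on co-culture -GFs replicate 1 and was not detected on the other 15 arrays. Single arrays that stand apart within groups of 2 or 3 were not tested.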

How the results depend on the processing

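Under alternatives that kept every array, 132 counts of called members were within 1.5 times the main count and 9 were not. The number of members called with FGF2 in co-cultures became 1 with the mean of a gene's probes (MEIS1, -1.11), with no minimum fold (MEIS1) and with the replicate block (OTX2, 1.43). With detection required on all 16 arrays it became 1 for FGF2 in PA6 cells (EGR2, adjusted p = 0.0795) and 3, 2 and 2 for co-cultures against PA6 cells (-GFs, FGF2, BMP4), since members undetected in PA6 cells left the test. With no minimum fold it was 1 for BMP4 against FGF2 in PA6 cells (EN1), and with all 16 arrays in the fit 1 for BMP4 against FGF2 in co-cultures (EN2). Leaving out 1 array gave 0 to 1 calls for FGF2 in co-cultures, 5 to 6 for co-cultures against PA6 cells without growth factors, 1 to 2 for the difference of FGF2 effects and 0 to 1 for that of BMP4 effects, and unchanged counts for the other 7 comparisons.

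Some differences of members turned sign, none of them past the fold limit on either side. Under median scaling this held for EN2 with BMP4 in co-cultures (0.019), GBX2 (0.29) and EGR2 (0.19) for BMP4 against FGF2 in co-cultures, MEIS2 for BMP4 against FGF2 in PA6 cells (-0.0051) and MEIS2 for the difference of BMP4 effects (0.13). For BMP4 against FGF2 in co-cultures it also held for GBX2 under cyclic loess (0.038) and with runs of adjacent table columns as a block (0.089), and for EGR2 with that block (0.055) and the replicate block (0.20). With the dimmer EN1 probe alone the values were -0.087 for FGF2 in co-cultures (main 0.78), 0.50 for BMP4 against FGF2 there (main -0.57) and -0.53 for the difference of FGF2 effects (main 0.59), and the dimmer MEIS1 probe gave -0.031 for BMP4 against FGF2 in PA6 cells. Leaving out 1 array gave ranges across 0 of -0.39 to 0.56 for OTX2, -0.12 to 0.54 for EN1 and -0.54 to 0.41 for EN2 with BMP4 in co-cultures, -0.19 to 0.18 for GBX2 and -0.34 to 0.33 for EGR2 for BMP4 against FGF2 there, -0.054 to 0.14 for MEIS2 for BMP4 against FGF2 in PA6 cells, and -0.22 to 0.034 for MEIS2 for the difference of BMP4 effects. The causes were not tested beyond what each alternative changes.

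Median scaling moved the median of all genes to -0.21 for FGF2 in co-cultures, 0.29 for BMP4 against FGF2 there and 0.24 for the difference of BMP4 effects. It moved the share of higher genes among all calls from 52.3% to 63.8% for BMP4 against FGF2 in co-cultures, from 61.6% to 77.4% for the difference of BMP4 effects and from 62.3% to 75.2% for that of FGF2 effects. Over the alternatives that kept every array, the number of all genes called was 324 to 1675 (main 1100) for FGF2 in co-cultures, 32 to 870 (556) for BMP4 there, 2 to 574 (214) for BMP4 against FGF2 there, 1 to 32 (4), 0 to 6 (0) and 2 to 72 (46) for the same comparisons in PA6 cells, 3480 to 10123 (6540), 3575 to 10860 (6874) and 3236 to 9981 (6283) for co-cultures against PA6 cells, and 451 to 1627 (1172) and 106 to 713 (628) for the differences of FGF2 and BMP4 effects. Per the labels every biological replicate had a well of each treatment, without saying that the numbers mark it. Deviations from group means correlated at 0.07 to 0.20 in same-numbered PA6 cultures (7 of 9 pairs over 0.1), at -0.20 to 0.28 in same-numbered co-cultures (1 of 6 pairs) and at 0.098 to 0.28 in co-cultures of the same run of columns (4 of 5 pairs). Since some pairs were not over 0.1, the main tests had no block, and fits with either block were alternatives. In PA6 cells the replicate block gave 23 calls among all genes for FGF2 (main 4) and 0 for BMP4 (main 0). For BMP4 against FGF2 in PA6 cells it gave 72 (main 46). The replicate block changed no call of a member other than that of OTX2 with FGF2 (1.43). The slide as a block was not run, because the table names no slides. The co-culture groups of 2 arrays set the widest errors, and values near background have no order.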

Other observations

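Over the 7 co-culture arrays, the genes with the values most like those of a member differed from member to member. For OTX2 they were LOC236228 (Pearson r = 0.988), A230051G13RIK and SALL1, and for EN2 2900011O08RIK (0.988) and TRRP1. EN1 was nearest to TMEM184B (0.966), TRF and AHDC1, and EGR2 to BTBD3 (0.973), CYP24A1 and PMF1. GBX2 was nearest to LOC100045522 (0.983), MGA and TROVE2. MEIS1 was nearest to CDS2 (0.997), D1ERTD471E and ZMYND11, and MEIS2 to D330004F16RIK (0.994), D1ERTD471E and ZFHX1B, so that D1ERTD471E was near both MEIS genes. These are the highest of 14828 correlations for each member over 7 arrays that share groups, and are given as a description.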
